A study of Hordeum vulgare with 4 samples.

Results

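A set of 171 assembled barley (Hordeum vulgare) genes had reads in callus of cultivar DWR91 (D91) and none in callus of cultivar Golden Promise (GP). Reads were estimated per transcript isoform, summed per gene and rounded. A gene belonged to the set when it had at least 10 counts in both D91 libraries and 0 in both GP libraries, with no statistical test. The set made up 171 of the 61598 genes of the assembly, and 1.09% of the 15712 genes with at least 10 counts in both D91 libraries. The other 15541 of these genes, which had a count in at least 1 GP library, are used below for comparison and called the other genes. The set was chosen on these counts, so its difference between the cultivars is a description and not a finding.

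The study compared RNA from callus of D91, with 2 libraries, and of GP, with 2 libraries, in cultivars contrasted for regeneration in vitro. All calli were 31 days old, after 28 days in the dark on one medium and 3 days in indirect light on another, and no transgene or further agent is named in the labels. The estimated counts summed to 1743621 and 3443040 in the D91 libraries and to 1825505 and 1737140 in the GP libraries. The labels do not say whether replicates came from separate cultures, so the spread between them may be technical. The identifiers carry no gene names, so the identity of the tissue could not be checked on marker genes, and no function can be given for any gene of the set.

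Callus is a mass of dividing, weakly organised plant cells formed on media with growth regulators, and barley shoots are regenerated from it after transfer to light. Golden Promise is the cultivar most widely used for barley transformation. Barley cultivars are known to differ in which genes they carry, in the sequence of shared genes and in gene expression. A count of 0 for an assembled gene says only that no read of the library was assigned to it. In RNA from whole callus, fewer cells of a type and less RNA per cell cannot be told apart.

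The set was a small part of the D91 transcript pool. It took 0.443% of the counts in D91 replicate 1 and 0.438% in D91 replicate 2, and 0 in each GP library. In the authors' deposited TMM-scaled signal, which is expression per transcript length, it took 0.564% and 0.573% in the D91 libraries. The 10 genes of the set with the highest mean D91 level in CPM (counts scaled to the library total) held 36.0% of its counts in D91 replicate 1 and 34.1% in D91 replicate 2.

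TRINITY_GG_20771_c0_g2 was the gene of the set with the highest mean CPM in D91. It had 604 counts in D91 replicate 1 and 517 in D91 replicate 2, against 0 in each GP library. Scaled to the library total, these were 346 and 150.2 CPM in D91, a mean of 248 ± 139 CPM (SD, n = 2). Both D91 libraries lay far above both GP libraries, and the D91 libraries differed from each other 2.31-fold. At the mean D91 level the GP libraries would have held 453 and 431 counts. A count of 0 allows up to 3 counts, or 1.64 CPM in GP replicate 1 and 1.73 CPM in GP replicate 2. The mean D91 CPM was 147-fold the mean of these 2 limits, and no lower limit was taken for D91. This ratio was 206-fold on D91 replicate 1 alone and 89.1-fold on D91 replicate 2 alone. The limits account for counting error alone, since several reads can stem from the same molecule.

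TRINITY_GG_22165_c0_g1 came next by mean CPM. It had 244 counts in D91 replicate 1 and 1119 in D91 replicate 2, against 0 in each GP library. These were 139.9 and 325 CPM in D91, a mean of 232 ± 131 CPM (SD, n = 2). The mean was 138-fold the limit of a 0 in GP. This ratio was 83.0-fold on D91 replicate 1 alone and 193-fold on D91 replicate 2 alone. Its D91 libraries differed 2.32-fold in the opposite sense to those of the first gene. Per transcript length it ranked first in the set, with a TMM-scaled signal of 336 and 807 in D91, against 265 and 122 for TRINITY_GG_20771_c0_g2.

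The other genes among the 10 highest in mean CPM varied in how well the D91 libraries matched. The third had 333 and 658 counts in D91, which is 191 CPM in each library. The fourth had 360 and 558 counts, or 206 and 162 CPM. The fifth had 226 and 627 counts, or 129.6 and 182 CPM. The D91 replicates thus differed less than 2-fold for these 3 genes once scaled to the library total. The eighth was 2.10-fold and the tenth 2.46-fold higher in D91 replicate 1, so 4 of the 10 differed over 2-fold between the D91 libraries. Of the 10 genes highest in mean CPM, 7 were also among the 10 highest in signal per length. The eighth gene by mean CPM ranked only 77 in signal, and its relative length was 3.95 times the median of the other genes.

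**Figure D1:**
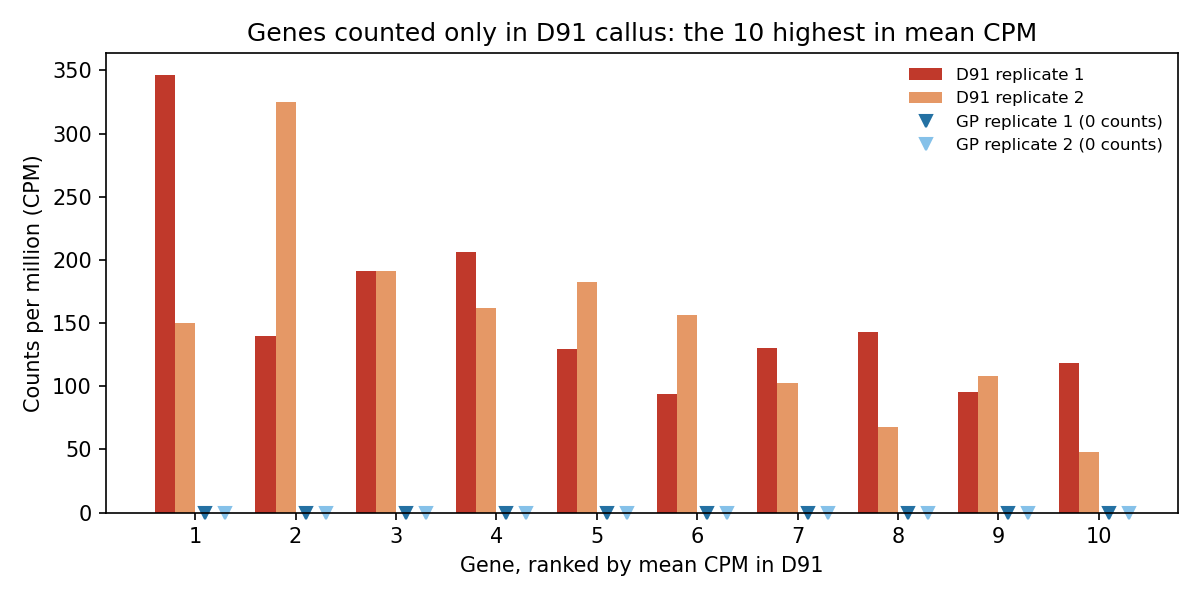
CPM in each library for the 10 genes of the set with the highest mean CPM in D91, as bars for the 2 D91 libraries and triangles at 0 for the 2 GP libraries. The first, the second, the eighth and the tenth genes differ over 2-fold between the D91 libraries, while the third stands at 191 CPM in each.

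Most genes of the set had few reads. The remaining 161 genes averaged 4.32 to 78.9 CPM in D91, and the median of all 171 was 13.7 CPM, against 23.5 CPM for the other genes. Per transcript length the sets lay closer, with a median signal of 16.3 in the set and 17.7 among the other genes. At its own D91 level the median gene of the set would have had 25.1 counts in GP replicate 1 and 23.9 in GP replicate 2. The gene with the lowest mean CPM would have had 7.89 and 7.50. The ratios of mean D91 CPM to the mean GP limit ran from 2.56 to 147, with a median of 8.15. On D91 replicate 2 alone the lowest ratio was 1.72, so the lowest ratios leave room for a small difference. At least 20 counts in both D91 libraries were found for 98 genes of the set, at least 50 for 35 and at least 100 for 15.

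Among genes well read in D91, a GP total of 0 was more frequent than each of the low totals next to it. Of the 8764 genes at 20 CPM or more in D91, 53 had a GP total of 0, and 24 had a total of 1 to 5 over both GP libraries. A further 24 had a total of 6 to 10 and 53 a total of 11 to 20. Of the 4079 genes at 50 CPM or more, 17 had a GP total of 0 and 7 had a total of 1 to 5. Over all 15712 genes the numbers were 171 and 191. These counts describe the whole distribution from which the set was cut and carry no test.

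**Figure D2:**
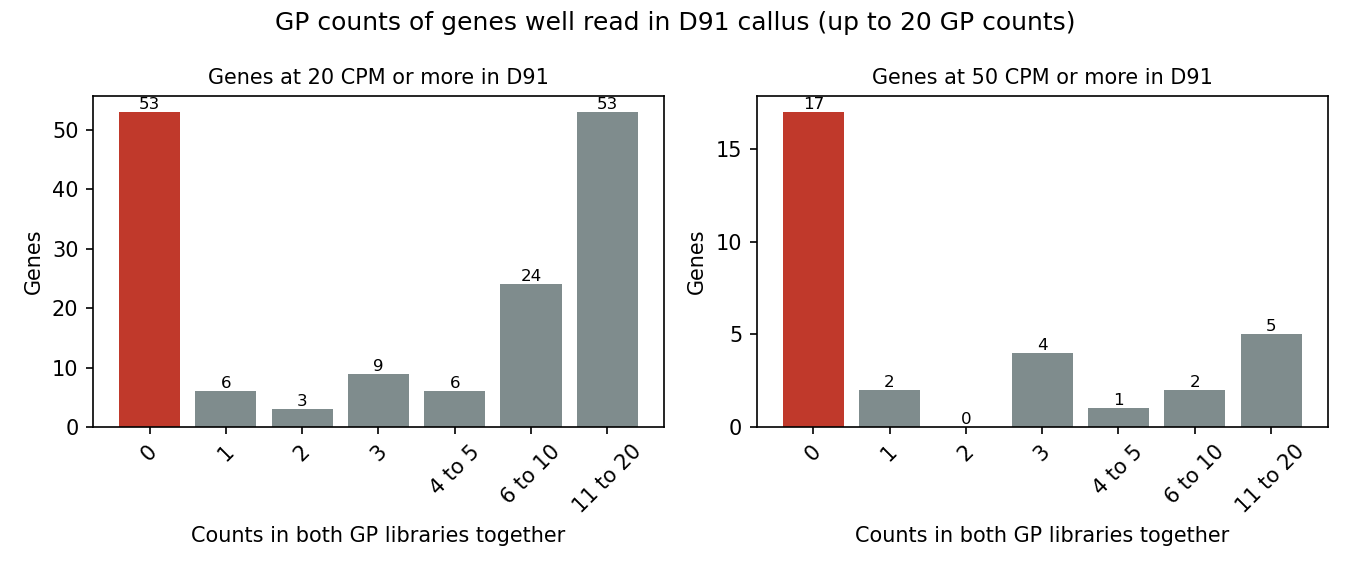
Number of genes by their counts in both GP libraries together, for genes at 20 CPM or more (left) and 50 CPM or more (right) in D91, drawn up to a total of 20 GP counts. The bar at 0, in red, holds 53 genes on the left and 17 on the right, and the bars at totals of 1 to 5 together hold 24 and 7.

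The share of genes without GP counts was lower among genes with more reads in D91. Genes with at least 10 counts in both D91 libraries were divided into 5 equal classes by mean D91 CPM. In the least abundant class 56 of 3146 genes (1.78%) belonged to the set, and in the next 54 of 3139 (1.72%). The middle class held 30 of 3142 (0.955%), the fourth 16 of 3142 (0.509%) and the most abundant 15 of 3143 (0.477%). Fewer GP reads would be needed for equal levels in the lower classes, and the part of depth in this order was not tested.

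Genes of the set had a lower median length than the other genes. Relative effective length was taken from the ratio of counts to TMM-scaled signal of a gene's main isoform in D91, with the median of the other genes set to 1. It could be computed for 168 of the 171 genes and had a median of 0.639 (quartiles 0.361 and 0.978), against quartiles of 0.598 and 1.51 among the other genes. The set had the lower median in 4 of the 5 abundance classes, such as 0.423 against 0.720 in the least abundant and 0.689 against 1.24 in the most abundant. The exception was the second class, with 0.894 and 0.888. A single isoform was assembled for 128 genes of the set (74.9%) and for 62.3% of the other genes. From the least to the most abundant class, the shares in the set were 83.9%, 66.7%, 73.3%, 87.5% and 60.0%. Among the other genes they were 76.4%, 66.5%, 58.1%, 52.6% and 57.9%, so the second and the most abundant classes nearly matched. No test was made, since genes of an assembly are not independent.

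**Figure D3:**
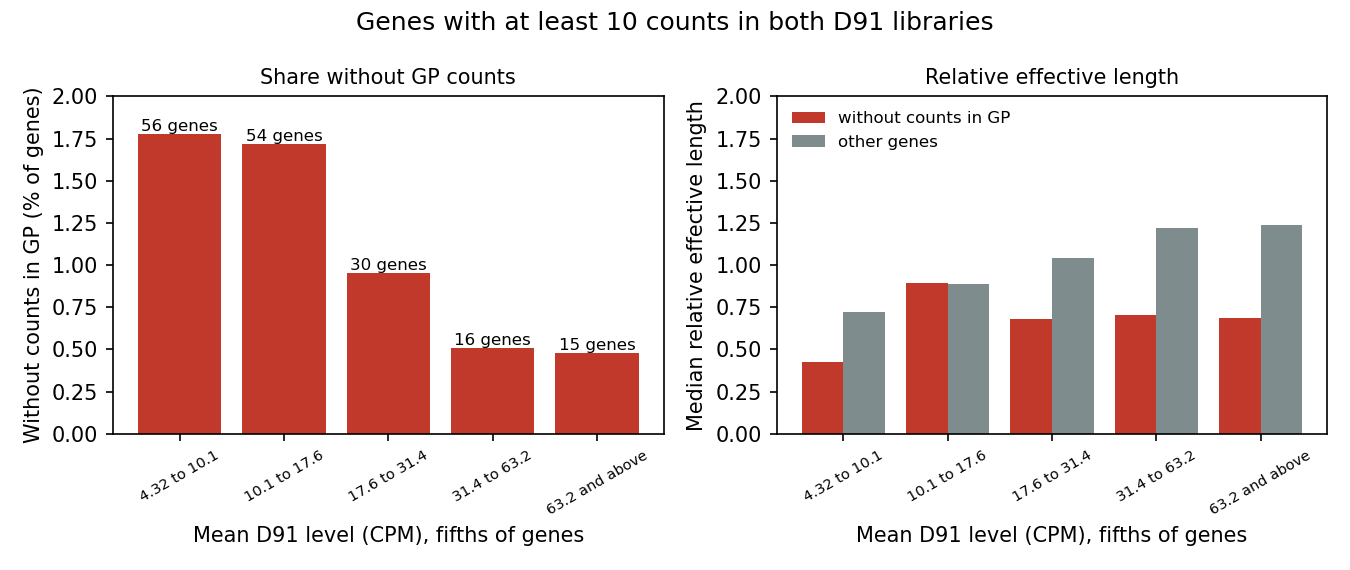
Left, percent of genes without counts in GP within 5 classes of mean D91 CPM, with the number of such genes above each bar; right, median relative effective length of these genes (red) and of the other genes (grey) in the same classes. The share is 0.477% in the most abundant class, and the red bar is the lower of the pair in every class but the second.

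The other 43 genes of the set had several isoforms, up to 10, and 140 isoforms in all. In 34 of the 43 the same isoform held the most reads in both D91 libraries. Over all 43, the isoform with the most reads in a library held a median of 75.2% of a gene's counts in D91 replicate 1 and 65.9% in D91 replicate 2. Only 43 of the 140 isoforms reached 10 counts in both D91 libraries. In 30 genes 1 isoform did so, in 5 genes at least 2 did, and in 8 genes none did although the gene's sum passed the minimum. Isoform levels are less certain than gene levels because isoforms share reads.

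The D91 replicates differed over 2-fold for 23 genes of the set (13.5%), against 8.11% of the other genes. The largest such difference was 4.34-fold. Of the 23 genes, 17 were higher in D91 replicate 1 and 6 in D91 replicate 2. Among the other genes 745 were higher in D91 replicate 1 and 516 in D91 replicate 2. In the most abundant class 6 of the 15 genes of the set (40.0%) differed over 2-fold, against 6.46% of the other genes there. In the second class the order was the other way, with 3 of 54 genes of the set (5.56%) and 11.0% of the other genes.

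**Figure D4:**
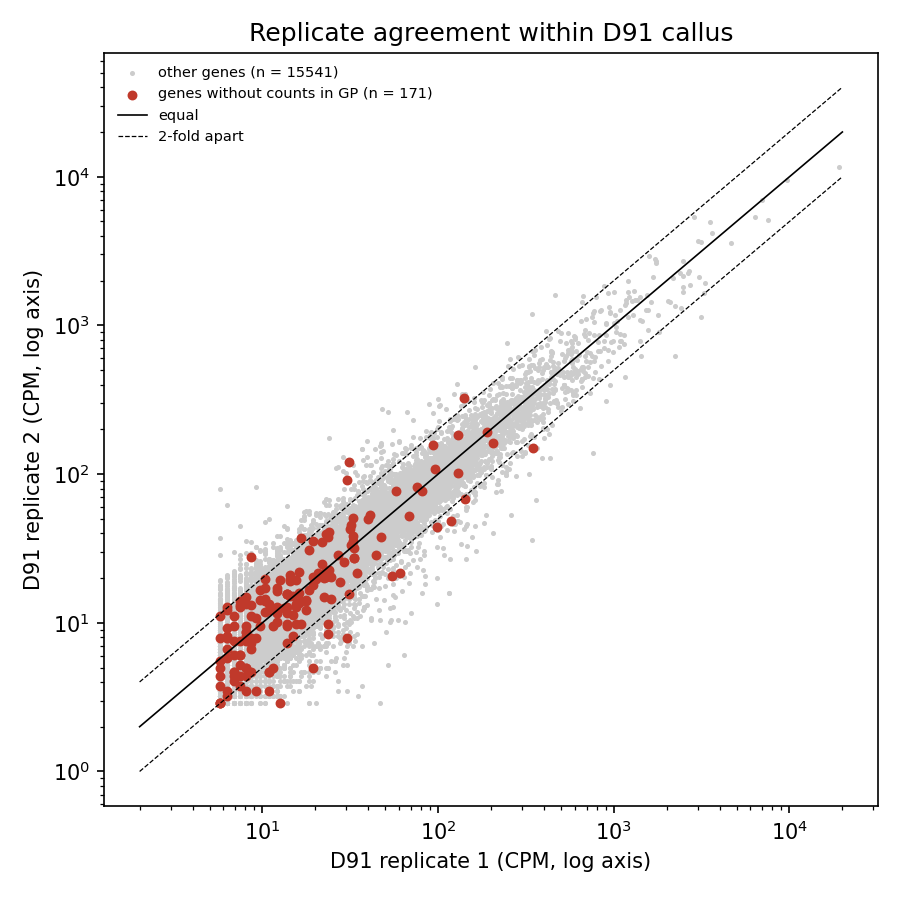
CPM in D91 replicate 1 against D91 replicate 2 on log axes, for the 171 genes without counts in GP (red) and the 15541 other genes (grey), with the line of equality and lines 2-fold apart. Of the red points, 17 lie over 2-fold higher in replicate 1 and 6 over 2-fold higher in replicate 2.

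A 0 in 1 GP library was most often matched by the other. Of the genes with at least 10 counts in both D91 libraries, 233 had 0 in GP replicate 1, and 73.4% of these also had 0 in GP replicate 2. Among the 15479 genes with a count in GP replicate 1, 0.685% had 0 in GP replicate 2. In the other direction 277 genes had 0 in GP replicate 2, and 61.7% of these had 0 in GP replicate 1, against 0.402% of the genes with a count in GP replicate 2. The match was not complete. With 0 in GP replicate 1, 10 genes had at least 20 counts in GP replicate 2, and with 0 in GP replicate 2, 15 genes had at least 20 in GP replicate 1. A 0 in a single GP library therefore also occurred at genes well read in the other, and why was not tested.

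When genes were picked on 1 library of each cultivar, the libraries left out gave the same measure anew. D91 replicate 1 and GP replicate 1 picked 292 genes with at least 10 counts in D91 and 0 in GP. Of these, 79.8% had at least 10 counts in D91 replicate 2, and 70.5% had 0 in GP replicate 2. The share at 0 in GP replicate 2 was 2.20% over all genes with at least 10 counts in D91 replicate 1. No such share over all genes was computed for D91 replicate 2, so the 79.8% has no background and shows no good match. In GP replicate 2, 26 of the 292 genes (8.90%) had at least 10 counts. Over all 4 choices of libraries, 58.4% to 70.5% of the picked genes had 0 in the GP library left out, and 34.2% to 79.8% had at least 10 counts in the D91 library left out. The lower shares in D91 came from picks in D91 replicate 2, the deeper library, and the part of depth in them was not tested. They too have no background over all genes. With 1 library a cultivar left out, these values have no test.

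The genes of the set lay at 159 loci of the assembly, a locus being the number after TRINITY_GG in the identifier. At 8 loci the set had several genes, 20 in all. At 81 of the 159 loci no gene outside the set was assembled, so the rule itself fixed the locus at 0 in GP. Genes outside the set were assembled at 78 loci, and at 48 of these no gene had a count in GP. These genes outside the set numbered 171 in all, and 118 of them also had 0 counts in both GP libraries. Over the whole assembly, 46417 of the 61598 genes had a count in GP replicate 1 and 45459 in GP replicate 2. Of these 118 genes, 13 had no count in any library and 105 had reads in D91 but too few for the set. Over the whole assembly, 6386 of the 61598 genes were of this last kind, and 59947 had a count in at least 1 library. A single share of all genes at 0 in both GP libraries was not computed, so the 118 are not read as a trait of these loci.

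Another gene with at least 10 counts in both GP libraries was assembled at 6 of the 78 loci with genes outside the set. No such share was computed for loci of the other genes, so the 6 are not read as a trait of the set. The most-read of the 6 loci held a gene with 710 and 1105 counts in D91, against 477 and 486 in GP. The gene of the set at that locus had 19 and 46 counts in D91 and 0 in each GP library, with a signal per length of 129 and 146 in D91. Another of the 6 loci held 11 genes, of which 6 had at least 10 counts in both GP libraries, while its gene of the set had 34 and 70 counts in D91 and 0 in GP. At these loci reads of GP were thus assigned to neighbours of the gene under the same locus number. With a library left out the set itself was picked anew, so the loci were not the same. There were then 23 such loci for 443 genes without D91 replicate 1 and 10 for 206 without D91 replicate 2. Without GP replicate 1 there were 20 for 277 genes, and without GP replicate 2 there were 14 for 233.

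Grouped by locus number with steps of at most 10 numbers, 42 of the 171 genes fell into 16 groups of several genes. Of these, 6 groups with 15 genes were single loci already counted above, and 10 groups with 27 genes spanned several loci. How many groups other genes of the assembly would form was not examined, so closeness is not shown for the set. The largest group held 8 genes at 5 loci within 25 consecutive numbers. No label says how the loci were numbered. The 8 genes had 10 to 604 counts in D91 replicate 1 and 27 to 558 in D91 replicate 2, against 0 in each GP library. They included the first, the fourth, the ninth and the tenth genes of the set by mean CPM. Together they held 20.4% of the set's counts in D91 replicate 1 and 13.1% in D91 replicate 2.

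The same 25 numbers held 8 other genes with at least 10 counts in both D91 libraries. Of these, 7 had 16 to 263 counts in the GP libraries, so genes with and without GP reads were interspersed along the numbers. The remaining gene had 432 and 2609 counts in D91, or 248 and 758 CPM, against 0 and 3 counts in GP. It missed the set by its 3 counts in GP replicate 2 although its mean D91 level in CPM was above that of every gene of the group. It differed over 2-fold between the D91 libraries, with D91 replicate 2 the higher. TRINITY_GG_20771_c0_g2 differed over 2-fold in the opposite sense.

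**Figure D5:**
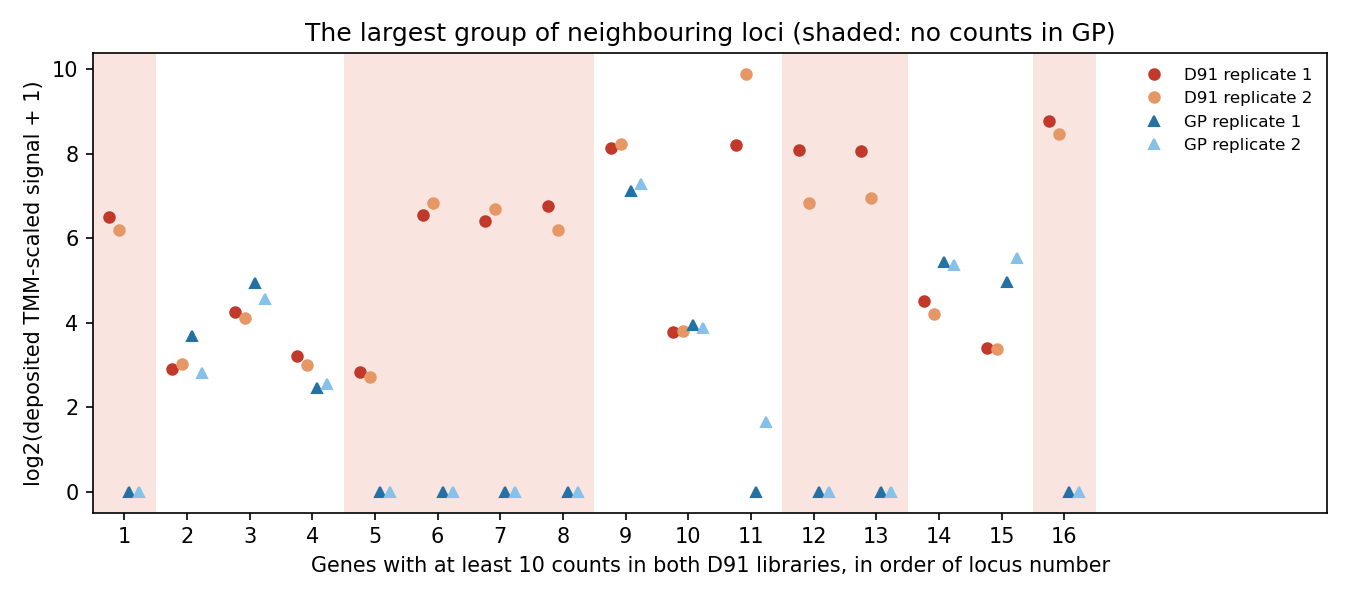
Deposited TMM-scaled signal, as log2(signal + 1), in each library for the 16 genes with at least 10 counts in both D91 libraries within 25 consecutive locus numbers; circles are D91 libraries, triangles GP libraries, and shaded columns mark the 8 genes without counts in GP. The GP triangles lie at 0 in the shaded columns, and the eleventh gene has 0 in GP replicate 1 and a low value from 3 counts in GP replicate 2.

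Some genes of the set had the same counts as another. There were 11 sets of genes with the same counts in all 4 libraries, which held 24 genes, and no such set lay at a single locus (0). Their counts reached at most 94 in D91. In 3 of the 11 sets, with 7 genes, the signal per length also matched within 1% in both D91 libraries, and these genes are uncertain as separate members. The largest of these 3 sets held 3 genes, with 24 and 54 counts in D91 and 7 assembled isoforms each. In the other 8 sets the signal per length differed between genes, so that only the counts coincided.

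The edges of the set were set by the rule alone. In the D91 library with fewer counts, 10 genes stood at exactly 10 counts and belonged to the set. Another 16 genes without GP counts stood at 9 and did not. With at least 10 counts in both D91 libraries, 34 genes missed the set by a single count in GP. A further 6386 genes had 0 in both GP libraries and reads in D91 below the minimum. Before rounding, 5 genes of the set had a GP value above 0, at most 0.38 of a read, so the name of the set holds strictly for 166. Among the 5 were the 3 genes above with the same counts and signal, each at 0.33 of a read in GP replicate 2.

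In the fit across all genes (edgeR's quasi-likelihood test with an adjusted p under 0.05), 143 genes of the set passed the filter on low counts and 143 were called higher in D91. The background was 10.1% of the 18035 genes tested. DESeq2 called 158 genes of the set (background 4.22% of 25080 genes), and edgeR without a filter called 159 (background 2.12% of 59947). The rule used the same counts, so nothing is read from these numbers. The other 28 genes, at 4.32 to 12.2 CPM in D91, did not pass the filter and were not tested in that fit. Without D91 replicate 1 the rule gave 443 genes and without GP replicate 1 it gave 277. The rule asks every library to meet its condition, so leaving 1 out can only keep or enlarge the set.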

How the data were processed

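Each library was made from 1.5 µg of DNase-treated total RNA, per the labels' protocols. STAR, RSEM and DESeq2 are named, with no versions, in the submitters' processing notes. For build, filters and pooling: not given in the sources used here. Among the tables, the authors' deposited isoform table holds expected counts. The authors' deposited TMM tables hold a signal, TPM times 1 factor per library. The deposited gene table, although named as counts, holds a signal too, in a fixed ratio to the TMM gene signal (coefficient of variation at most 0.00182%).

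Isoform counts were summed per gene and rounded (75397 isoforms, 61598 genes, 34032 loci). CPM used library totals. Genes were tested on all 4 libraries with edgeR 4.0.16 in R 4.3.3 (TMM, filterByExpr, cultivar only), as D91 over GP, and the scripts were tested on simulated data. Alternatives used DESeq2 1.42.0 and limma 3.58.1. Of the identifiers, 0 matched the 58438 entries of the RefSeq table, and no columns of unmapped samples were present (0). At most 2 identifiers are printed, the genes of the set with the highest mean D91 CPM that share their counts with no other gene. Other genes are given by rank in mean CPM. The set and the tests were chosen with earlier results of these data known.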

Additional observations from a re-analysis of the deposited data

How the results depend on the processing

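The set held 171 genes. It held 368 with a minimum of 5 counts in both D91 libraries, 98 with 20 and 35 with 50, with median D91 levels of 5.50, 21.4 and 46.9 CPM against 13.7. Isoforms in place of genes gave 466, and the scaled values of the deposited gene table gave 1512, of which 154 were in the set. It stayed within 1.5 times with counts summed per locus (144), D91 replicate 2 thinned to the depth of replicate 1 (144, median 15.2 CPM), exactly 0 in GP before rounding (166, median 13.3 CPM) and up to 1 count in each GP library (216, median 12.1 CPM). With 1 library left out at a time there were 206 to 443 genes with medians of 4.94 to 12.1 CPM.

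Loci with another gene at 10 or more counts in both GP libraries numbered 6, or 18 with at least 1 count in both and 2 with at least 50 in both. They numbered 10 to 23 with a library left out, when the set was picked anew. Genes higher in D91 numbered 1813, or 1059 in DESeq2, 1208 by limma on the deposited signal with a pseudocount of 0.1, and 315 to 3769 with a library left out (3769 without D91 replicate 1, 3308 without D91 replicate 2, 523 when GP replicate 1 was dropped and 315 when GP replicate 2 was). These last fits take the spread of the single remaining library from the pair of the other cultivar. Genes of the set called numbered 143, or 110 to 144 with a library left out (backgrounds of 1.56% to 18.3%), 158 in DESeq2 (background 4.22%) and 159 without a filter (background 2.12%). With the replicate block the numbers were 1632 and 143; same-numbered libraries deviated together at r = 0.03 across genes, and no label ties them, so they were not treated as pairs. A filter of 10 counts in every library removes the whole set and gave it no value. Except for minima, rounding and filters, whose construction sets the change, the cause was not tested. Leaving a library out of the rule can only keep or enlarge the set, so the direction of that change is set by construction too.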

Other observations

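Some genes were counted in D91 and in 1 GP library only. The gene with the most counts in GP replicate 2 among those at 0 in GP replicate 1 had 227 and 166 counts in D91, against 0 in GP replicate 1 and 236 in GP replicate 2. The gene with the most counts in GP replicate 1 among those at 0 in GP replicate 2 had 105 and 183 counts in D91, against 122 in GP replicate 1 and 0 in GP replicate 2. The GP replicates thus lay far apart for both genes. Of the genes with at least 10 counts in both D91 libraries, 20 had at least 10 counts in GP replicate 2 with 0 in GP replicate 1, and 25 had the reverse. These genes were picked after their values were seen.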
